A study of Mus musculus with 2 samples.

Results

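The genes Myh10, Myh9, Myh7, Myh6, Myh3, Myh8, Myh11, Myh1, Myh4 and Myh2 encode class II myosin heavy chains, the motor subunits of the filaments that contract muscle and shape other cells. They were chosen by name for what they encode, and the locus of each was found by its Ensembl identifier. They were 10 of 37681 gene identifiers, which the authors had placed in 34624 loci. Where genes overlap, the authors counted them together as 1 locus. Among the heavy chains 8 were counted alone. The locus of Myh1 also held Myhas, annotated as antisense, and an identifier with no name in the tables used here (ENSMUSG00000078820). The locus of Myh2 also held the antisense gene 9430073C21Rik. Whether counting used strand is not given in the sources used here, and reads from opposite strands of these 2 loci cannot be told apart.

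Total RNA came from untreated, normally developing whole mouse embryos at embryonic day 10.5, from CBA/Ca × C57Bl/10 crosses, in 1 group of 2 replicates. Neither the number of embryos behind a replicate nor whether both came from separate RNA is given in the labels, so the spread between them may be technical. Counts summed over loci came to 18318181 in replicate 1 and 117522171 in replicate 2. The 10 heavy chain loci took 44893 and 243160 of these. Levels are RPKM (reads scaled to transcript length and library size) as the authors deposited them, given for replicate 1 and then replicate 2. The summed counts exceed the library sizes implied by counts and RPKM, 13711737 and 77921398 reads. Whether a read could be counted at more than 1 locus is not given in the sources used here. No condition was compared, so the question answered here is which heavy chains the embryo's RNA holds, in what proportion, and beside which partner genes.

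A class II myosin is a pair of heavy chains, each with a motor head that binds actin and splits ATP, a neck that carries 1 essential and 1 regulatory light chain, and a coiled tail that packs into filaments. Cytoplasmic (non-muscle) heavy chains work in nearly all cells, in division, migration and the bending of epithelia. Sarcomeric heavy chains differ in speed of contraction and replace each other as heart and skeletal muscle mature. At embryonic day 10.5 the heart already beats, while the first skeletal muscle is forming in the myotomes of the somites.

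Of the 10 heavy chains, 7 reached 1 RPKM in both replicates, the level at which a locus is said to be detected or to pass, and 3 did not: Myh1, Myh4 and Myh2, all of adult fast skeletal muscle. Across the series 49.4% of all loci and 65.1% of protein-coding loci reached this level, so the share of heavy chains detected is close to that of coding loci. At 10 RPKM or more in both replicates stood 5 of the 10 (Myh10, Myh9, Myh7, Myh6 and Myh3), against 42.2% of protein-coding loci. The median over all protein-coding loci was 8.38 and 5.52 RPKM. In RNA of a whole embryo, fewer cells of a type and less RNA per cell cannot be told apart. The plot of levels orders the genes by their mean.

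**Figure D1:**
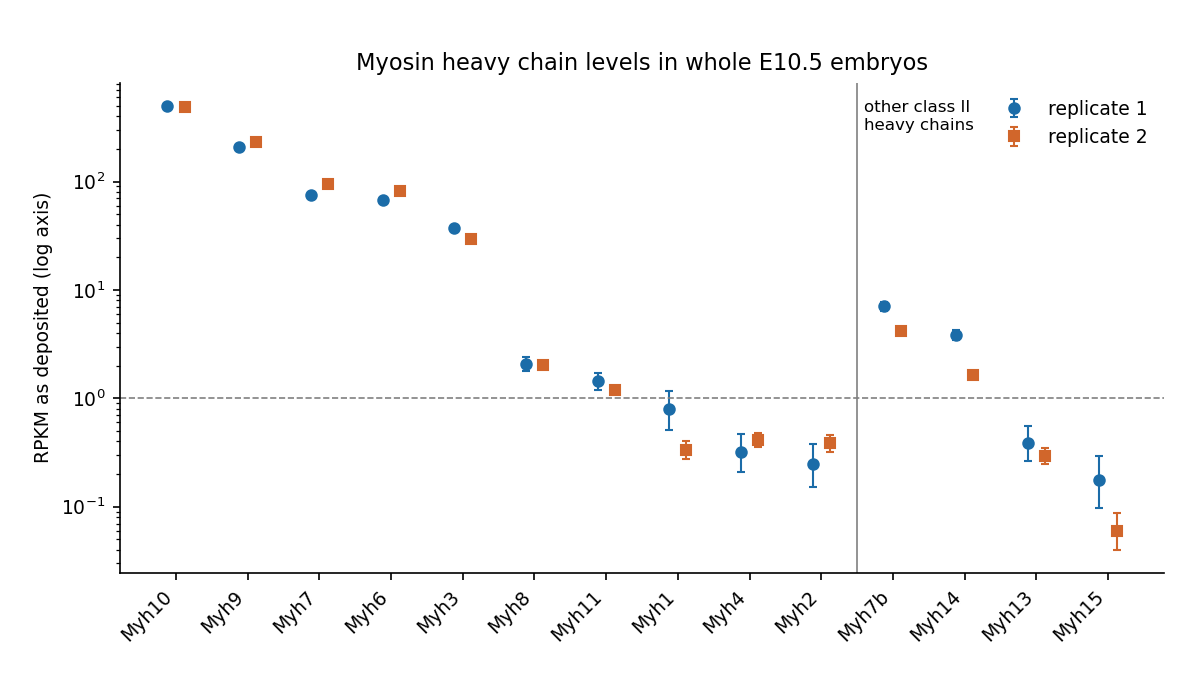
Levels of the 10 heavy chains, and right of the vertical line of the 4 other class II heavy chains, in RPKM as deposited on a log axis. Circles are replicate 1 and squares replicate 2, bars are 95% exact Poisson intervals of the read count (counting error only), and the dashed line marks 1 RPKM. The 5 highest genes sit between 29.5 and 500.2 RPKM, Myh8 and Myh11 between 1.19 and 2.08, and Myh1, Myh4 and Myh2 below the line in both replicates.

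The cytoplasmic heavy chains led. Myh10, the heavy chain of non-muscle myosin IIB, stood at 500.2 RPKM in replicate 1 (19267 reads) and 485 RPKM in replicate 2 (97653 reads), rank 322 of 34624 loci and 159 of 19295 protein-coding loci. Myh9, the heavy chain of non-muscle myosin IIA, stood at 206 and 232 RPKM (10932 and 51010 reads), rank 559 among protein-coding loci. Myh10 made up 70.8% and 67.6% of the RPKM summed over this pair (69.2 ± 2.25%, SD, n = 2). Myh10 exceeded Myh9 by 1.17 ± 0.15 (SD, n = 2) on the log2(RPKM + 1) scale, in the same direction in both replicates. That is within the limit of 1.99 for loci above 118 RPKM. The limit is 2 SD of the log2 ratio between replicates over loci of that level, and it is wide here because the 1922 loci of the highest level group had an SD of 0.996. Both genes have promoters rich in G and C, 62.7% for Myh10 and 64.7% for Myh9 against a median of 52.7% over 32851 RefSeq promoters. The promoter of Myh10 is shown because it belongs to the highest heavy chain. It covers 250 bases before to 50 after the start on build GRCm38.p6 and runs 5′ to 3′, with capitals for matches of the motif CANNTG or of CATTCC on either strand, which overlap by 1 base just before the start.
Myh10 promoter, chr11:68691665-68691964, plus strand: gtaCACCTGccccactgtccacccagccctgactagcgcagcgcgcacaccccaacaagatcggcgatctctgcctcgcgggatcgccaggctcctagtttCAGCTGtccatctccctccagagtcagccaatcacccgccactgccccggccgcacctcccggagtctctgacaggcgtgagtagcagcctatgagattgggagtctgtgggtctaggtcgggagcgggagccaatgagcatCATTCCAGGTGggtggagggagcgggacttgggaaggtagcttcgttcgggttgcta

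The coding sequences of Myh10 and Myh9 were 72.5% identical in a global alignment of 1 transcript each from GENCODE M21. Their longest identical run was 122 bases, from coding position 1513 in Myh10 and 1381 in Myh9, and it is shown to make visible how little exact sequence they share. Only 1.22% of the 50-base windows of Myh10 and 1.42% of those of Myh9 occurred in another of the 10 genes, so few reads of such a length could come from either gene alike. The read length is not given in the sources used here.
Myh10 and Myh9 shared stretch: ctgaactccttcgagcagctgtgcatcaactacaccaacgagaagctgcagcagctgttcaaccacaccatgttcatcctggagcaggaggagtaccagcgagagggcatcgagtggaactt

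The cardiac pair followed. Myh7, the beta or slow heavy chain of the ventricle, stood at 74.4 and 94.2 RPKM (5968 and 40717 reads), and Myh6, the alpha heavy chain that becomes the main form of the adult mouse heart, at 68.0 and 81.6 RPKM (5620 and 38300 reads). Myh7 thus made up 52.2% and 53.6% of the pair's summed RPKM (52.9 ± 0.953%, SD, n = 2), close to equal parts in both replicates. The log2 difference of Myh7 over Myh6, 0.17 ± 0.05 (SD, n = 2), was small beside the limit of 1.13. Both genes were higher in replicate 2, by 0.34 for Myh7 and 0.26 for Myh6 on the log2(RPKM + 1) scale. The median over detected loci lay lower in replicate 2, at -0.36 with an SD of 0.65. Over loci of the level of these 2 genes (means above 60.9 and up to 118 RPKM) it was -0.16 with an SD of 0.57.

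Myh7 and Myh6 are neighbours on mouse chromosome 14 and each carries a microRNA in an intron, as does the related gene Myh7b on chromosome 2. The mature forms are shown because their seeds (bases 2 to 8, in capitals) tie the 3 host genes together: miR-208a of Myh6 and miR-208b of Myh7 share the seed UAAGACG, and that of miR-499 of Myh7b is UAAGACU. Sequences and coordinates are from RefSeq on GRCm38.p6, in RNA letters and 5′ to 3′.
mmu-miR-208b-3p, chr14:54975710-54975731, minus strand: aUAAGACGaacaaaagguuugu
mmu-miR-208a-3p, chr14:54949072-54949093, minus strand: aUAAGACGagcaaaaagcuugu
mmu-miR-499-5p, chr2:155622893-155622913, plus strand: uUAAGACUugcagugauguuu

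Of the 3 hairpin loci none reached 1 RPKM in both replicates. Mir208b and Mir499 had 0 reads in both replicates, which allows up to 2.84 and 0.500 RPKM for Mir208b and up to 2.77 and 0.487 RPKM for Mir499 (3 reads in each library). Mir208a had 0 reads in replicate 1 and 2 reads, or 0.309 RPKM, in replicate 2. The labels name a standard Illumina library, and whether it retains RNA as short as a mature microRNA is not stated. Nothing follows from these values about mature microRNA.

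The coding sequences of Myh7 and Myh6 were 91.4% identical, and 23.8% of the 50-base windows of each occurred in another of the 10 genes. The split of reads between them is therefore uncertain to the extent that the authors' counting divided shared reads or counted them for both genes. Their longest identical run was 245 bases, from coding position 4240 in Myh7 and 4246 in Myh6, and it is shown because a read that lies wholly within it matches both genes.
Myh7 and Myh6 shared stretch: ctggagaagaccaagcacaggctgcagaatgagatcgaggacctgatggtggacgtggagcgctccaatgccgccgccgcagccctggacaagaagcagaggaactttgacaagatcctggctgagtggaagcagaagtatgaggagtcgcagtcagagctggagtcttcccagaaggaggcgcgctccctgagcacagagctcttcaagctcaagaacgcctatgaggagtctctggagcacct
The promoters of both genes are shown because the genes stood at nearly equal levels. Capitals mark matches on either strand of 3 motifs. The first is the TATA box (TATAAA), which sets the start in many promoters. Another is the E-box (CANNTG), bound by basic helix-loop-helix factors. The third is the muscle element that TEAD factors bind (CATTCC). Each held 1 CATTCC match, 201 bases before the start in Myh7 and 206 before it in Myh6. The window of the second RefSeq promoter of Myh7 (chr14:54994500-54994799) lies further into the gene and overlaps the first. It held no CATTCC match, as it does not reach back to the site in the first.
Myh7 promoter, chr14:54994577-54994876, minus strand: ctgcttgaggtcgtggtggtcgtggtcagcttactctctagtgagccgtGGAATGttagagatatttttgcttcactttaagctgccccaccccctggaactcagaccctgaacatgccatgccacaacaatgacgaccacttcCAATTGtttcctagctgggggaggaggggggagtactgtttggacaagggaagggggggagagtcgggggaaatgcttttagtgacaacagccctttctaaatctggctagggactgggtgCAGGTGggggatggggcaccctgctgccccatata
Myh6 promoter, chr14:54966558-54966857, minus strand: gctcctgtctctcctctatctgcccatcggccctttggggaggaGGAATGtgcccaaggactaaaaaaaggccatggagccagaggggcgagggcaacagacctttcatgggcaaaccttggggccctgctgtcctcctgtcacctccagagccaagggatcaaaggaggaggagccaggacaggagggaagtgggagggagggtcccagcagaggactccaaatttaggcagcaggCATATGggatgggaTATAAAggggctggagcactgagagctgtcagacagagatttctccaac

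Among the heavy chains classed here as skeletal (Myh3, Myh8, Myh1, Myh4 and Myh2) the embryonic form stood far above all others. Myh7, which stood higher, is counted with the cardiac pair. Whether part of its RNA came from skeletal muscle was not tested. Myh3, the embryonic heavy chain of the first myotubes, stood at 37.1 and 29.5 RPKM (2753 and 13518 reads). Myh8, the perinatal heavy chain, stood at 2.08 and 2.02 RPKM (163 and 979 reads). Myh3 made up 94.7% and 93.6% of their sum (94.1 ± 0.766%, SD, n = 2), and its log2 difference over Myh8, 3.48 ± 0.20 (SD, n = 2), was beyond the limit of 1.23. Of the 9 pairs of neighbours in the order of levels, this was the 1 pair beyond the spread between replicates as deposited.

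The adult fast heavy chains were near the floor of detection. Myh1, the type IIx chain, stood at 0.792 and 0.337 RPKM on 24 and 104 reads, in a locus joined with Myhas and the unnamed identifier. Myh4, the type IIb chain of the fastest fibres, stood at 0.321 and 0.413 RPKM on 26 and 188 reads. Myh2, the type IIa chain, stood at 0.248 and 0.384 RPKM on 20 and 128 reads, also joined. The order of these 3 was not settled: Myh1 over Myh4 was 0.44 in replicate 1 and -0.080 in replicate 2, and Myh4 over Myh2 was 0.06 ± 0.04 (SD, n = 2), within the spread. Counting intervals show how few reads lie behind replicate 1, from 0.151 to 0.382 RPKM for Myh2 and from 0.508 to 1.18 RPKM for Myh1 (95% exact Poisson).

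All these skeletal genes lie in 1 cluster on the plus strand of chromosome 11, in the order Myh3, Myh2, Myh1, Myh4, Myh8 and Myh13. The detected members, Myh3 and Myh8, are the first and the fifth, with the 3 adult fast genes between them. Myh1, Myh4, Myh8 and Myh2 were 87.7% to 91.0% identical to each other in coding sequence, and between 19.2% and 27.9% of their 50-base windows occurred in another of the 10 genes, so low counts of any of them may include reads of the others. Myh3 was 80.1% to 80.9% identical to these 4 and shared 3.79% of its windows.

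**Figure D2:**
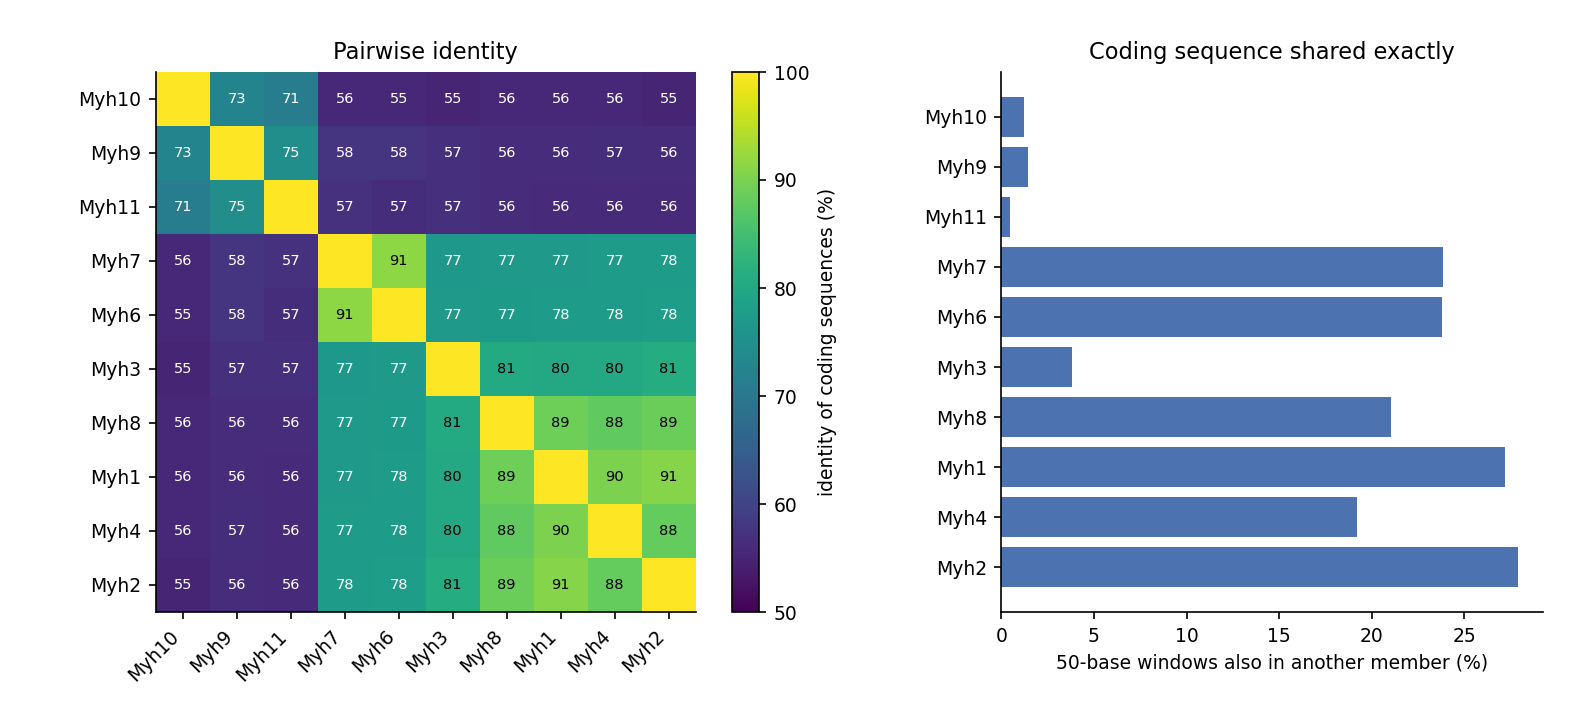
Left, percent identity of the coding sequences of each pair of heavy chains (colour and numbers); right, percent of 50-base windows of each coding sequence that occur unchanged in another of the 10 genes. Myh7 and Myh6, and the 4 genes Myh8, Myh1, Myh4 and Myh2, form blocks of high identity, while Myh10, Myh9 and Myh11 share under 1.5% of their windows.

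The promoters of Myh3 and Myh4 are shown as the highest gene of the cluster and one near the floor. Both held TATAAA about 30 bases before the start, at -29 in Myh3 and -31 in Myh4 (counted from the start to the first base of the match), as did Myh1 at -32. Myh4 also held 1 CATTCC and 3 CANNTG matches, and Myh3 held 1 CANNTG match.
Myh3 promoter, chr11:67078050-67078349, plus strand: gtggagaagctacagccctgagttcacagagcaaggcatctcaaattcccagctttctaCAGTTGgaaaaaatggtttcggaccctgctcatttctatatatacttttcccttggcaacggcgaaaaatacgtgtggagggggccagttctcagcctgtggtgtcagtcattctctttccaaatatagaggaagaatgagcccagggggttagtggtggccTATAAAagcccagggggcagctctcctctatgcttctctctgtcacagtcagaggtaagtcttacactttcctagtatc
Myh4 promoter, chr11:67237562-67237861, plus strand: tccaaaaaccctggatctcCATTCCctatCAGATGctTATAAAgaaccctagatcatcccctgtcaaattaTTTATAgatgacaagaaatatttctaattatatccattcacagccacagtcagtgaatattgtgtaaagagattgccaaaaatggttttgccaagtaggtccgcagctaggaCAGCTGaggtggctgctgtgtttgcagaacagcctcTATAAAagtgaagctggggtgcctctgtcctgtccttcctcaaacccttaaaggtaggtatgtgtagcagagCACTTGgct
RefSeq promoters were found for 9 of the 10 genes. TATAAA occurred on either strand in 7 of the 9 (13.6% of all 32851 promoters), CANNTG in 7 (72.3%), CATTCC in 5 (14.7%) and GGGCGG, the GC box, in 1, Myh9, with 6 matches (35.7%). TATAAA was in all 3 of the lowest genes and not in Myh10 or Myh7. The only matches in Myh9, at -123, and in Myh8, at -96, were on the reverse strand. In Myh6 and Myh2 the only match began after the start, at 2 and 11. Matches at -29, -32 and -31 were those of Myh3, Myh1 and Myh4. A match describes the letters of these windows and is not a bound site.

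Myh11, the heavy chain of smooth muscle, stood at 1.44 and 1.19 RPKM (120 and 563 reads). It was close to Myh8 (Myh8 over Myh11, 0.40 ± 0.09, SD, n = 2, within a limit of 1.12) and far below Myh9, its relative in sequence (74.7% identical), which exceeded it by 6.57 ± 0.23 (SD, n = 2) on the log2 scale, beyond the limit. Smooth muscle markers other than Myh11 were higher. Each of the 8 loci was detected, and their median was 17.98 and 9.60 RPKM. The actin-binding protein gene Cald1 (219 and 320 RPKM), the actin Acta2 (76.3 and 85.1) and Tagln (38.8 and 36.4) were highest, and Lmod1 (2.69 and 2.42) was lowest. Cald1, Acta2 and Tagln are also transcribed outside smooth muscle, Acta2 and Tagln in the early heart among other places.

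By class, the cytoplasmic pair summed to 706 and 717 RPKM, the cardiac pair to 142 and 176, and the developmental skeletal pair (Myh3 and Myh8) to 39.2 and 31.5. Of the RPKM summed over the 10 genes, the cytoplasmic share was 78.3 ± 1.37%, the cardiac 17.5 ± 2.12%, the developmental skeletal 3.90 ± 0.702%, the smooth muscle 0.145 ± 0.0236% and the adult fast skeletal 0.138 ± 0.0216% (SD, n = 2 each). The cytoplasmic share was 79.3% in replicate 1 and 77.4% in replicate 2, and the cardiac share 16.0% and 19.0%. Cytoplasmic, cardiac and developmental skeletal shares kept this order in both replicates, and the 2 smallest shares overlapped in their spread. The classes are of genes, and the tissue behind each share was not tested. These shares depend on the transcript length behind RPKM, as follows.

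The length that each deposited RPKM was divided by can be read back from the read count and the library size, and it was short for some heavy chains. For Myh10 it was 2.81 and 2.58 kb, and for Myh9 3.86 and 2.82 kb, whereas the longest 5′ UTR plus coding sequence of these genes in GENCODE M21 is 6.23 and 6.12 kb. For Myh6 (6.03 and 6.02 kb) and Myh11 (6.07 kb in both) the length was close to that of the whole chain. The shortest lengths were those of genes with many transcripts in the files: Myh10 and Myh1 had 10 in their loci and Myh9 had 9, while Myh11 had 2. In 7 of the 10 genes the length differed by over 5% between replicates. Levels recomputed with the longest length, an alternative chosen after seeing the data, were 226 and 201 RPKM for Myh10, 130.3 and 107 RPKM for Myh9, 70.2 and 84.2 RPKM for Myh7 and 67.7 and 81.2 RPKM for Myh6. On that scale the cytoplasmic share was 66.9% and 60.8%, the cardiac share 25.9% and 32.6%, and Myh7 made up 50.9% of the cardiac pair in both replicates. Myh10 stayed highest, at 63.4% and 65.3% of the cytoplasmic pair. The longest length leaves out the UTR after the coding sequence, and whether reads there were counted is not given in the sources used here. Which length is nearer to the transcripts in these embryos was not tested.

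**Figure D3:**
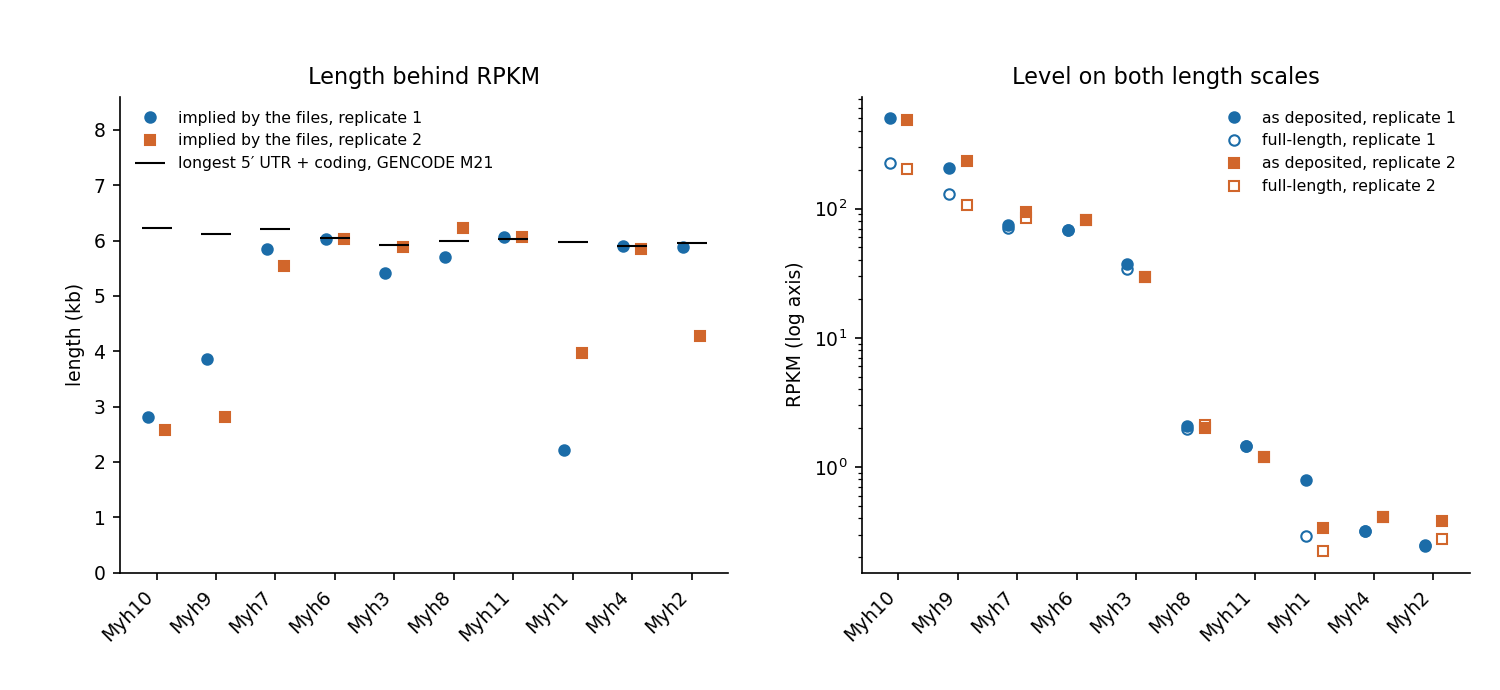
Left, length in kb behind the deposited RPKM of each heavy chain (circles replicate 1, squares replicate 2) beside the longest 5′ UTR plus coding length (black bars). Right, level in RPKM on a log axis as deposited (filled) and with the longest length (open). Myh10, Myh9 and Myh1 lie well below the bars on the left in both replicates and Myh2 in replicate 2, and the same values drop on the right.

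**Figure D4:**
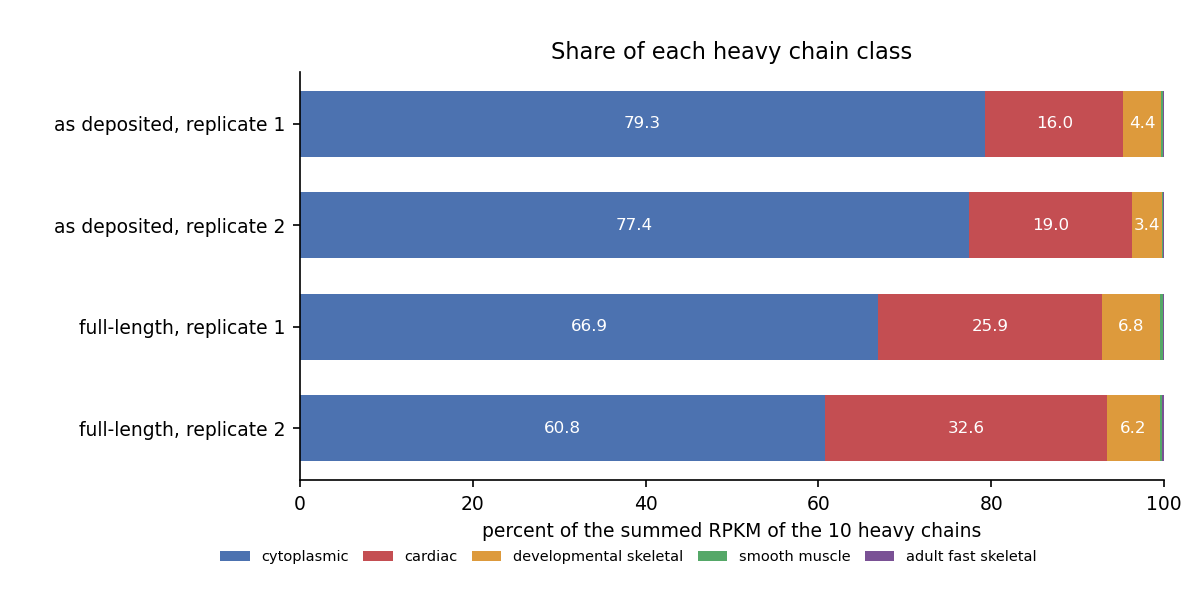
Percent of the RPKM summed over the 10 heavy chains that each class made up, in each replicate, with RPKM as deposited and with the longest length. The cytoplasmic class is the largest in all 4 bars, from 60.8% to 79.3%, and the cardiac class is next, from 16.0% to 32.6%.

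Of the 45 pairs of heavy chains, 32 differed beyond the spread between replicates, and 30 of these did so on the longest-length scale too. The share among pairs of other loci was not computed, so whether this count is particular to heavy chains is not known. Each of Myh10, Myh9, Myh7, Myh6 and Myh3 exceeded each of the 5 lower genes beyond its limit. Within the upper 5, Myh10 exceeded Myh3 by 3.86 ± 0.19 and Myh9 exceeded Myh3 by 2.69 ± 0.35 (SD, n = 2), both beyond the limit of 1.99. Myh10 exceeded Myh7 by 2.54 ± 0.27 and Myh6 by 2.71 ± 0.22, also beyond it, but on the longest-length scale they were within their limit of 1.81, at 1.46 and 1.51. Myh9 over Myh7 (1.38 ± 0.12) and over Myh6 (1.54 ± 0.06) were within the limit of 1.99. Myh7 over Myh3 (1.31 ± 0.46) was just beyond 1.23 and Myh6 over Myh3 (1.15 ± 0.41) just within it. Myh7 over Myh3 was 0.99 in replicate 1 and 1.64 in replicate 2, so the call rests on replicate 2. In the lower 5, Myh8 exceeded Myh4 by 1.16 ± 0.09 and Myh2 by 1.22 ± 0.13, just beyond 1.12. The first of these was 1.10 in replicate 2, within the limit, and both were within it at a pseudocount of 0.1 or with 1 limit for all levels. Myh8 over Myh1 was within it as deposited (0.98 ± 0.28) and beyond it on the longest-length scale (1.27, limit 1.00). With 2 values for each gene no two-sided exact test could give a p below 0.333, so none is given.

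The median log2 ratio of replicate 2 over replicate 1 was 0.03 over the 10 heavy chains as deposited, -0.02 with the longest length and -0.19 in CPM, which scales by the summed counts of a library. Over all detected loci it was -0.36 as deposited. Over loci at 1 RPKM or more in either replicate it moved with level, from -0.56 in 1 of the lower level groups to 0.27 in the highest. As deposited Myh1 had the largest ratio (-0.42), followed by Myh7 (0.34) and Myh3 (-0.32). These values moved with the length behind RPKM: with the longest length Myh1 was at -0.080 and Myh9 at -0.28, against 0.17 for Myh9 as deposited. Levels in RPM, reads scaled to library size alone with no length, had exact Poisson intervals that overlapped between replicates for the 5 lower genes, among them Myh1 (1.12 to 2.60 RPM in replicate 1 and 1.09 to 1.62 RPM in replicate 2). For the 5 higher genes, which have the most reads and so the narrowest intervals for their level, they did not overlap. There the replicates differed by more than counting error: Myh7 and Myh6 were higher in replicate 2, and Myh10, Myh9 and Myh3 were lower. The share of all loci without overlap was not computed, so whether this is particular to the heavy chains is not known.

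The 4 other class II heavy chains were low. Myh7b, a slow-type chain and host of miR-499, stood at 7.09 and 4.22 RPKM. Myh14, the heavy chain of non-muscle myosin IIC, stood at 3.83 and 1.65 RPKM, far below Myh10 and Myh9. Myh13, known from extraocular muscle, stood at 0.389 and 0.296 RPKM (31 and 134 reads), and Myh15 at 0.177 and 0.0600 RPKM (14 and 27 reads). Thus 2 of these 4 reached 1 RPKM in both replicates.

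Both lists of light chains had medians above that of all coding loci. Of the essential light chains all 5 loci reached 1 RPKM in both replicates (median 39.1 and 40.7 RPKM). Myl4, the atrial and embryonic muscle form, stood at 97.8 and 284 RPKM in a joined locus, Myl6 of smooth muscle and non-muscle cells at 127 and 222, and Myl3 of the ventricle at 39.1 and 40.7. Myl6b was lowest at 5.41 and 4.14. Of the regulatory light chains 6 of 7 passed (median 76.8 and 95.3 RPKM), led by Myl12a (153 and 192) and Myl12b (159 and 169), the non-muscle forms, and Myl9 (115 and 134), which smooth muscle and non-muscle cells use. Myl10 was lowest, with 0.107 RPKM and 0.

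Of the genes for folding and assembly, 8 of 9 passed (median 13.97 and 6.87 RPKM). The general chaperones Hsp90ab1 (1285 and 2510 RPKM) and Hsp90aa1 (817 and 2887) were highest, followed by Unc45a (33.9 and 28.7), the myosin chaperone of cells in general. The ubiquitin ligase gene Trim54 (0.954 and 0.823, joined) was lowest. Unc45b (8.09 and 6.87, joined), the chaperone of muscle myosin, and Smyd1 (13.97 and 4.40), a muscle methyltransferase needed for sarcomere assembly in zebrafish, are given for their role, chosen after their values were seen. Of the thick filament and M band loci 8 of 11 passed, with a median of 2.27 and 1.84 RPKM, below the median of all coding loci. The cytoskeletal adaptor Obsl1 (74.0 and 50.9, joined with Chpf), the giant spring protein titin, Ttn (47.8 and 42.3, joined), and Mybpc1, slow skeletal myosin binding protein C (20.5 and 15.2), were highest, and Mybpc2, its fast skeletal relative, was lowest (0.274 and 0.108).

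Of the kinases and phosphatase subunits that set the phosphorylation of regulatory light chains, 12 of 13 passed (median 35.8 and 41.4 RPKM). Ppp1cb, the catalytic subunit of myosin phosphatase, stood at 204 and 279 RPKM, its targeting subunit gene Ppp1r12c at 181 and 148, and the kinase Cdc42bpa at 159 and 128. Mylk2, the light chain kinase of skeletal muscle, was lowest at 0.0716 and 0.0693. Of 22 transcription factors and cofactors known to act on heavy chain genes, 20 passed (median 15.95 and 10.4 RPKM). Tead1, which binds the CATTCC element, stood at 71.2 and 38.8 RPKM, Mef2a at 64.4 and 46.3 and Mef2c at 47.6 and 47.9, both activators of muscle genes. The thyroid hormone receptor Thrb was lowest at 1.21 and 0.671.

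Most loci listed as markers of the muscle types that the labelled tissue could hold were detected. The RNA is of whole embryos, so the tissue behind each marker, skeletal muscle, heart or another, was not tested. The level of a joined locus may include reads of the genes joined to it. All 8 cardiomyocyte markers passed (median 35.3 and 28.5 RPKM), with the ventricular light chain Myl2 (54.6 and 95.3), the atrial peptide gene Nppa (41.8 and 46.0, joined) and Pln, the regulator of the calcium pump (49.6 and 25.9, joined), highest, and the calcium release channel Ryr2 (4.59 and 2.52) lowest. Of the skeletal muscle markers 7 of 9 passed (median 11.3 and 7.65 RPKM), with the fast regulatory light chain Mylpf (76.8 and 56.7), the calcium pump Atp2a1 (29.2 and 26.9, joined with Rabep2) and the slow troponin Tnni1 (23.4 and 21.4) highest, and the creatine kinase Ckm (0.180 and 0.0632, joined) lowest. Mylpf, a light chain of fast muscle, thus stood far above the adult fast heavy chains. Of the 24 unconventional myosins, motors of other classes, 18 passed (median 11.3 and 5.48 RPKM). Myo18a (149.9 and 135) and Myo10 (123 and 93.4), a motor of filopodia, were among the highest and Myo7b of brush borders (0.226 and 0.0537) lowest, and none of the 24 reached the level of Myh9 or Myh10 as deposited.

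The length behind RPKM bears on these partners as well, and levels with the longest length were over 1.5 times lower for several. Myl4 stood at 22.5 and 53.6 RPKM on that scale, but the longest length in its joined locus, 3273 bases against 755 and 618 behind the deposited values, may be that of a joined gene. Mylpf stood at 31.4 and 24.0 RPKM, still above the adult fast heavy chains. Of the kinases and phosphatase subunits, Ppp1r12c stood at 52.6 and 43.0 and Cdc42bpa at 74.9 and 58.6. Tead1 stood at 35.5 and 20.5, Obsl1 at 37.8 and 23.4 and Hsp90aa1 at 423 and 905. Among unconventional myosins Myo18a stood at 33.6 and 29.0 and Myo10 at 38.3 and 28.1. Atp2a1 stood at 11.98 and 9.22, below Tnni1 (18.8 and 15.9), and Pln at 26.1 and 15.1, below the troponin Tnnt2 (29.8 and 37.2). List medians on that scale were 22.5 (the value of Myl4) and 26.5 RPKM for essential light chains, 38.4 and 81.9 for regulatory light chains, 28.0 and 23.1 for cardiomyocyte markers, 5.50 and 3.98 for skeletal muscle markers, 10.6 and 6.17 for smooth muscle markers and 6.15 and 3.59 for unconventional myosins. For the folding genes they were 7.58 and 5.72, for the thick filament 2.27 and 1.67, for the kinases and phosphatase 35.8 and 28.3 and for the regulators 12.6 and 7.04.

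**Figure D5:**
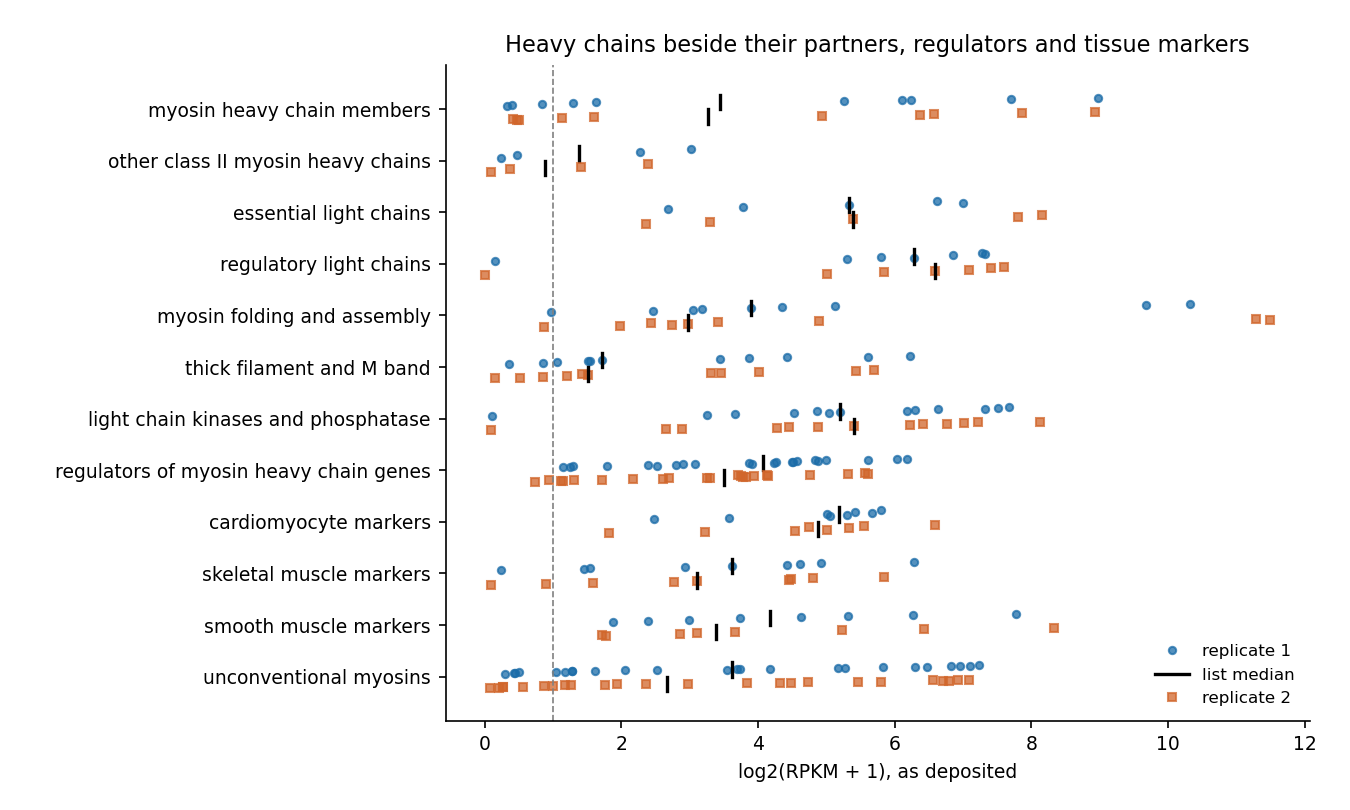
Levels of the heavy chains and of 11 gene lists on the log2(RPKM + 1) scale as deposited, with 1 circle for each locus in replicate 1 and 1 square in replicate 2. Black ticks are list medians for each replicate and the dashed line marks 1 RPKM. The heavy chains run from 3 loci left of the line to Myh10 at the right, while light chains, cardiomyocyte markers and smooth muscle markers lie right of it except Myl10.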

How the data were processed

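Total RNA of whole mouse embryos, extracted with TRI reagent, was sequenced from standard Illumina libraries, per the labels' protocols. TopHat and build mm9 are named per the submitters' processing notes. Sources used here do not give the counter, read filters, read length or strand use. Per the file headers, the authors deposited RPKM values and whole-number, unnormalized read counts for each locus.

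The 10 genes and the 12 gene lists (119 genes) were chosen with earlier results of these data known. Genes named were all 10 heavy chains, genes joined to their loci, the 4 other class II heavy chains, and from each list the 3 highest, the lowest and any at 0 in both replicates, of which 1 gene is not reported here. Rows of 1 locus were summed, and 32642 of 37681 identifiers (86.6%) had a symbol. With 1 group and 2 replicates no test between conditions was possible.

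Log2 values used a pseudocount of 1. A pair of genes counted as beyond the spread if its sign was the same in each replicate and its mean exceeded 2 SD of the log2 ratio between replicates, in 10 level groups of the loci at 1 RPKM or more in either replicate. The library size implied by counts and RPKM was 13711737 reads in replicate 1 and 77921398 in replicate 2, so replicate 1 has the larger counting error. Intervals are exact Poisson at 95% and cover counting error only.

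Lengths behind RPKM were compared with GENCODE M21 transcripts for loci of 1 transcript and over 200 reads. They were within 1% of the 5′ UTR plus coding length in 60.8% of 1682 coding loci, and of the whole transcript in 2.62%. Coding sequences were aligned with Biopython 1.88. Promoters and microRNAs are from RefSeq on GRCm38.p6, used for sequence only. Python 3.11.15 with pandas 2.3.3 and scipy 1.17.1 was used. The pair rule was run on simulated loci with the same SD at all levels, no shift between replicates and no pseudocount. The data here differ from that, so the run does not show how often the rule errs on them. Alternatives were the minimum, pseudocount, filter, scaling, limit, joined loci, 1 shared length, each replicate left out and, chosen after seeing the data, full-length RPKM. Full-length RPKM uses the longest 5′ UTR plus coding length.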

Additional observations from a re-analysis of the deposited data

How the results depend on the processing

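Results that changed direction or call are given here. With full-length RPKM, an alternative chosen after seeing the data that changes the length itself, the class shares were 63.8% cytoplasmic, 29.3% cardiac, 6.48% developmental skeletal, 0.254% smooth muscle and 0.170% adult fast skeletal. Without joined loci the adult fast share was 0.0403%, as only Myh4 was left, and 5 thick filament and 5 cardiomyocyte marker loci were left at 1 RPKM, by construction. Myh1 over Myh4 turned to -0.12 with full-length RPKM, and lay between -0.080 and 0.44 with 1 replicate left out. Myh1 over Myh2 turned to -0.0031 and lay between -0.050 and 0.52. Myh10 over Myh7 (1.46) and over Myh6 (1.51) came within the limit with full-length RPKM, while Myh6 over Myh3 went beyond it with full-length RPKM (1.21) and without replicate 1 (1.44), as did Myh8 over Myh1 (1.27 and 1.18). Myh7 over Myh3 fell within it without replicate 2 (0.99), with replicates rescaled (1.32), and without the low-value filter or level groups (1.31 each). Myh8 over Myh4 did so without replicate 1 (1.10), rescaled (1.25), without the filter or level groups (1.16 each) and at a pseudocount of 0.1 (2.21), and Myh8 over Myh2 at that pseudocount (2.39) and without level groups (1.22). The cause was not tested. Without level groups Myh9 also went beyond it over Myh7 (1.38) and Myh6 (1.54). The median ratio between replicates, 0.03, turned to -0.045 with 1 shared length, -0.022 with full-length RPKM and -0.19 in CPM, and that of Myh9, 0.17, to -0.28, -0.28 and -0.46. That of Myh8 also changed sign with either length and that of Myh2 in CPM, all within 0.1 of 0 on the changed scale. The count of detected heavy chains was 9 at a minimum of 0.3 RPKM, 5 at 3 RPKM and 7 otherwise, and 30 to 33 pairs were beyond the spread. Depth limits Myh1, Myh4 and Myh2, with 20 to 26 reads in replicate 1. No paired analysis was possible because the series holds 1 group.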
